A study of Mus musculus with 32 samples.

Results

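Collagens, laminins, nidogens and perlecan build the fibres and the basement membrane around fat cells, and their mRNA was followed here in cultured mouse adipocytes exposed to an inflammatory cytokine, to 3 compounds, or to both. Members were chosen by symbol: every gene named Col, a number, a and a number, every gene whose symbol starts with Lama, Lamb or Lamc and a digit, and Nid1, Nid2 and Hspg2. The rule found 58 of the 57186 genes listed: 11 fibrillar collagens, 6 collagen IV genes, 14 laminins, nidogens and perlecan, and 27 other collagens. Of these, 36 of 58 passed the filter on low counts and were tested among 14428 genes: 9 fibrillar collagens, 3 collagen IV genes, 10 laminins, nidogens and perlecan, and 14 other collagens. The 22 members left out included Col2a1, Col4a3, Col4a4, Col4a6, Lama1, Lama2, Lama3 and Lamc3. Their mean level over the 32 libraries was at most 0.184 CPM (counts per 1e6 counts), and 3 of them (Col4a4, Col9a2 and Col13a1) had 0 counts in all libraries, which allows up to 4.45 counts per 1e9.

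The cells were 3T3-L1, a clonal line of mouse preadipocytes, so all cultures stem from 1 clone. They had been differentiated into adipocytes with insulin, dexamethasone and IBMX. For 24 h each culture then received TNF-alpha (TNF) together with SCO, CAP7, rosiglitazone (ROSI) or DMSO vehicle, or SCO, CAP7, ROSI or DMSO without TNF, in 8 groups of 4 libraries labelled biological replicates. TNF is an inflammatory cytokine that impairs the insulin response of fat cells. ROSI activates PPARγ, the master transcription factor of adipogenesis. SCO is not defined in the labels, although the series title names an extract of Artemisia scoparia. The identity of CAP7 and the doses were not stated in the labels. Cultures with TNF and DMSO are called TNF alone, and those with DMSO and no TNF are called DMSO. The p-values measure the spread between these cultures.

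Collagen chains wind into a triple helix. The fibrillar collagens (types I, III, V, XI and XXVII among the tested members) form the tensile fibres of connective tissue. Collagen IV and the laminins form separate networks in the basement membrane, the thin sheet that wraps each fat cell, and nidogens and perlecan tie these networks together. Collagen VI forms beaded microfibrils next to that sheet and is abundant in fat tissue. Preadipocytes make a fibril-rich matrix and move to a matrix rich in basement membrane as they turn into fat cells.

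Library totals lay between 11.3 M and 37.7 M, with a median of 20.9 M (M stands for 1e6 counts), and mean totals were lower with SCO and DMSO without TNF (15.0 M and 15.6 M) than in the other groups (20.8 to 24.2 M). The cells carried fat cell markers: all 11 adipocyte markers, among them Adipoq, Plin1 and Pparg, passed the filter. Their summed level was 44234 ± 4248 CPM with TNF plus SCO, 46802 ± 3986 with TNF plus CAP7, 64411 ± 5793 with TNF plus ROSI and 19888 ± 1438 with TNF alone, and 79117 ± 3925 with SCO, 72324 ± 5541 with CAP7, 88004 ± 6162 with ROSI and 58618 ± 1704 with DMSO (SD, n = 4). Among markers of macrophages and leukocytes, Adgre1, C1qa and C1qb had 0 counts in every library while Ptprc and Itgam reached at most 0.306 and 0.104 CPM in any library. The summed level of the 10 markers ranged from 39.4 to 50.8 CPM with TNF alone and from 11.1 to 14.8 CPM with DMSO, mostly Cd14 and Cd68. The 6 endothelial markers summed to 0.102 to 0.480 CPM with TNF alone and 0.130 to 0.647 CPM with DMSO, and the 4 epithelial ones to 0.357 to 0.798 and 0.998 to 2.35 CPM, with Epcam at 0 in every library. The 5 mural cell markers summed to 15.8 to 19.98 and 25.5 to 35.6 CPM. With TNF alone all 11 adipocyte markers fell. Without TNF they did not move as a set: SCO raised 4 and lowered 2, CAP7 raised 7 and lowered 2, and ROSI raised 6 and lowered 2. Their median log2 changes there were 0.12, 0.22 and 0.22. In TNF cultures SCO raised 9, CAP7 10 and ROSI 9, with 0 lowered. The test and the shares of all genes called are given in the next paragraph. The part of any of these cell type markers in the changes of the matrix genes was not tested.

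Over the 36 tested members, TNF moved more of them down than up, and so did every compound. A member was called when edgeR's quasi-likelihood test gave a Benjamini-Hochberg adjusted p under 0.05 over all 14428 genes, and log2 changes are given with their standard error (4 libraries against 4). With TNF alone against DMSO, 8 members rose and 16 fell, and of the rises Col17a1 passed the filter only through libraries with TNF. The same call covered 54.2% of all genes tested, 26.7% higher and 27.5% lower. The bracketed shares give the calls over all genes in each case. Without TNF, SCO raised 2 and lowered 15 members (19.3% of all genes tested, 10.3% higher and 8.99% lower), CAP7 raised 5 and lowered 12 (30.3% of all genes tested, 15.2% higher and 15% lower) and ROSI raised 7 and lowered 15 (37.4% of all genes tested, 18.4% higher and 19% lower). With TNF present, SCO raised 2 and lowered 14 (21.3% of all genes tested, 13.2% higher and 8.09% lower), CAP7 raised 5 and lowered 9 (32.2% of all genes tested, 18% higher and 14.2% lower) and ROSI raised 9 and lowered 14 (35.9% of all genes tested, 19.6% higher and 16.3% lower), each against TNF alone. The median log2 change over the tested members was -0.21 with TNF, -0.22, -0.15 and -0.20 with SCO, CAP7 and ROSI without TNF, and -0.34, -0.20 and -0.25 in TNF cultures. The same median over all genes tested lay between -0.030 and 0.012 in these 7 comparisons.

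The split between rises and falls depended on the scaling between libraries for CAP7 and ROSI. With library size alone, TNF still gave 8 rises and 16 falls. SCO gave 2 and 16 without TNF and 2 and 15 in TNF cultures. Scaled by library size alone, the 36 members gave 2 rises and 15 falls with CAP7 and 4 and 18 with ROSI without TNF, and 3 and 15 with CAP7 and 5 and 18 with ROSI in TNF cultures. That scaling moved the median of all genes by -0.11 and -0.14 for CAP7 and ROSI without TNF and by -0.10 and -0.16 with TNF. In each of the 3 compound comparisons within a state the same 4 control libraries served as the control. In RNA from whole cultures, fewer cells of a type and less RNA per cell cannot be told apart.

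**Figure D1:**
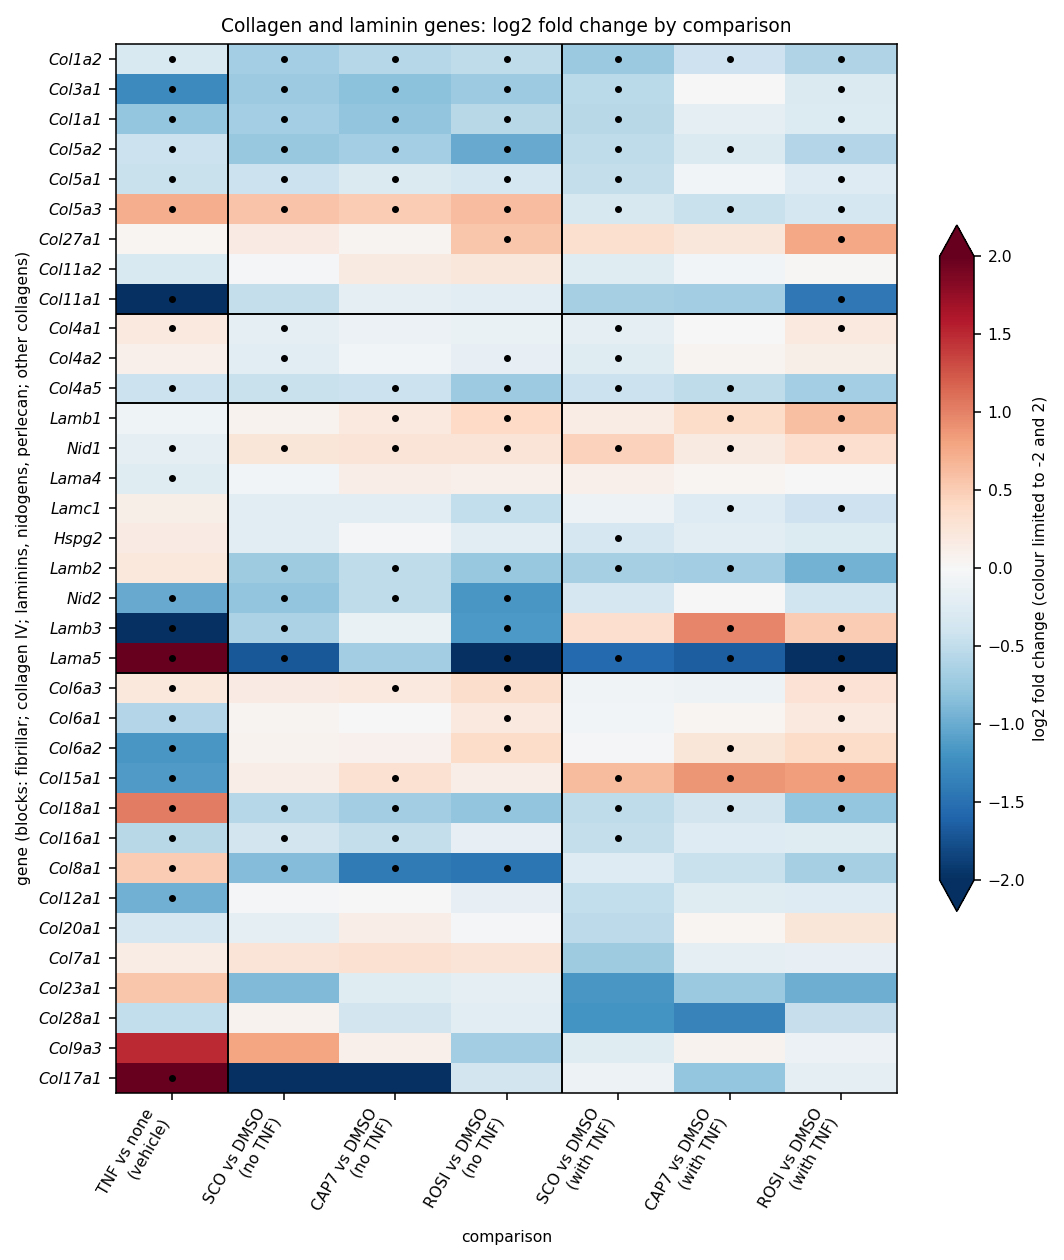
Log2 changes of 35 of the 36 tested members, 1 row per gene grouped by class, 1 column for each of the 7 comparisons with a control. Colour gives the direction and size of the change and a mark shows an adjusted p under 0.05. The 5 fibrillar genes Col1a1, Col1a2, Col3a1, Col5a1 and Col5a2 are lower in most columns (-1.27 for Col3a1 with TNF), while Nid1 is higher in the 6 compound columns.

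The main fibrillar collagen genes, of collagens I, III and V, fell with TNF and with each compound without TNF, apart from Col5a3, which rose. Of 9 tested fibrillar genes, 6 fell and 1 rose with TNF; SCO and CAP7 without TNF each lowered 5 and raised 1, and ROSI lowered 5 and raised 2. On top of TNF, SCO lowered 6 of 9, CAP7 lowered 3 and ROSI lowered 7 and raised 1. Called genes were 77.8% of the class with TNF, against 54.2% of all genes tested. With SCO, CAP7 and ROSI without TNF they were 66.7%, 66.7% and 77.8%, against 19.3%, 30.3% and 37.4%. In TNF cultures they were 66.7%, 33.3% and 88.9%, against 21.3%, 32.2% and 35.9%. The median change of the class was -0.42 with TNF, -0.48 with SCO, -0.28 with CAP7 and -0.35 with ROSI, and in TNF cultures -0.51, -0.20 and -0.29 (log2). Summed over its 11 genes, the class came to 3179 ± 365 CPM with TNF plus SCO, 4044 ± 327 with TNF plus CAP7, 3577 ± 212 with TNF plus ROSI and 5046 ± 57.2 with TNF alone, against 4551 ± 153 with SCO, 4665 ± 484 with CAP7, 4936 ± 128 with ROSI and 7221 ± 503 with DMSO (SD, n = 4).

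Markers of preadipocytes and fibroblasts fell with the compounds as well. Of 13 tested, SCO lowered 12, CAP7 13 and ROSI 12 without TNF, and SCO lowered 11, CAP7 10 and ROSI 11 in TNF cultures, with none raised. With TNF alone 4 rose and 5 fell. Called markers were 92.3%, 100% and 92.3% with SCO, CAP7 and ROSI without TNF, against 19.3%, 30.3% and 37.4% of all genes tested. In TNF cultures they were 84.6%, 76.9% and 84.6%, against 21.3%, 32.2% and 35.9%, and with TNF alone 69.2%, against 54.2%. Their sum ranged from 2409 to 2697 CPM with SCO, 2050.2 to 2407 with CAP7 and 2308 to 2678 with ROSI, against 3668 to 4113 CPM with DMSO. In TNF cultures it ranged from 2857 to 3475 CPM with SCO, 2402 to 3283 with CAP7 and 2849 to 3336 with ROSI, against 4083 to 4280.0 CPM with TNF alone. The list of 14 includes the matrix genes Fn1, Postn, Dcn, Lum and Fbn1, and Cd34 did not pass the filter. Their part in the falls of the collagens was not tested either.

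Promoter windows of 3 fibrillar genes are shown because Col1a2 and Col3a1 fell with TNF and with each compound without TNF, where Col5a3 rose. In TNF cultures Col5a3 fell with each compound, as Col1a2 did. Each runs from 250 bases before to 50 after the gene start (300 bases, RefSeq, GRCm38.p6), 5′ to 3′ in the direction of the gene. They lie at chr6:4505368-4505667, plus strand (Col1a2), chr1:45311288-45311587, plus strand (Col3a1) and chr9:20815018-20815317, minus strand (Col5a3). Capitals mark the CCAAT box, the TATA box (TATAAA) or the half-site AGGTCA, on either strand.
Col1a2: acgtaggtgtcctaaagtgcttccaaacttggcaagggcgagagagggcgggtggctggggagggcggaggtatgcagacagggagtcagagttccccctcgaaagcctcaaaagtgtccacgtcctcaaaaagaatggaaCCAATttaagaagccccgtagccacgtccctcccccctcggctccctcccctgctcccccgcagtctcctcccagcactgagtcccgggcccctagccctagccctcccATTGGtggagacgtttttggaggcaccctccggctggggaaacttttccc
Col3a1: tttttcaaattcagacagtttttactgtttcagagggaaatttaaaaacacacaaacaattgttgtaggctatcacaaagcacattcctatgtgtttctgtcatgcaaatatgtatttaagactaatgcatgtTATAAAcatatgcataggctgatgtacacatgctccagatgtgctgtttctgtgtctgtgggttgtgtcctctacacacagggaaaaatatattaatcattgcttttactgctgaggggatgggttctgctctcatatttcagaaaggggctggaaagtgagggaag
Col5a3: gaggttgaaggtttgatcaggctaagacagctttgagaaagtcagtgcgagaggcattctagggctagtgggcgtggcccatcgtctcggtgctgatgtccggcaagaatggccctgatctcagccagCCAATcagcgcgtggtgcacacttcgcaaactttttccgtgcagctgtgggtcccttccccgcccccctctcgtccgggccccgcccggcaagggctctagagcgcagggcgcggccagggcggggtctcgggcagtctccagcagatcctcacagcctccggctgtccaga

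Windows were at hand for 42 of the 58 members and 28 of the 36 tested. The letters of the CCAAT box occurred in the windows of Col1a2 and Col5a3 and in 37.4% of all 32851 promoter windows, searched on both strands. The TATA box letters TATAAA occurred in that of Col3a1 and in 13.6% of all windows. AGGTCA, the half-site of nuclear receptors such as PPARγ, is in none of these 3 windows and in 16.3% of all. TGANTCA (AP-1) is likewise in none of the 3 and in 7.81% of all. GGGCGG (GC box) is in those of Col1a2 and Col5a3 and in 35.7% of all. No matches of these motifs overlap in the 3 windows, and a match is a run of letters only.

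Col3a1 encodes the single chain of collagen III, which joins collagen I in thin fibrils. Col3a1 was at 567, 559.6, 587 and 587 CPM with TNF alone, against 1426, 1482, 1330.4 and 1329 CPM with DMSO. Without TNF, Col3a1 was at 884, 838, 792 and 853 CPM with SCO, 862, 839, 755 and 684 with CAP7 and 878, 901, 782 and 815 with ROSI. In TNF cultures, Col3a1 was at 473, 409.9, 345 and 359 CPM with SCO, 544, 567, 671 and 515 with CAP7 and 513, 462, 423 and 486 with ROSI. Every TNF library lay below every DMSO library, and so did every library of each compound. Among TNF cultures, those with SCO and with ROSI all lay below TNF alone, while those with CAP7 overlapped it. The log2 change was -1.27 ± 0.084 with TNF (adjusted p = 4.70e-16), and -0.73 ± 0.083, -0.83 ± 0.083 and -0.72 ± 0.083 with SCO, CAP7 and ROSI without TNF (largest adjusted p = 1.94e-08). In TNF cultures it was -0.54 ± 0.083 with SCO (adjusted p = 3.78e-06) and -0.29 ± 0.083 with ROSI (adjusted p = 0.00526), and for CAP7 -0.0028 ± 0.083 with an interval of -0.17 to 0.16 (adjusted p = 0.987).

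Col1a1 and Col1a2 encode the chains of collagen I, the main collagen of connective tissue. Col1a1 was at 655, 692, 753 and 683 CPM with TNF alone, against 1341, 1214, 1142 and 1039 CPM with DMSO. Without TNF, Col1a1 was at 791, 726, 706 and 741 CPM with SCO, 770.4, 718, 637 and 605 with CAP7 and 799, 839, 740.2 and 831 with ROSI. In TNF cultures, Col1a1 was at 565, 437, 411 and 480.3 CPM with SCO, 517, 623, 714 and 574 with CAP7 and 632, 549, 537 and 588 with ROSI. TNF and each compound without TNF put every library below every DMSO library. With TNF present, SCO and ROSI libraries lay below TNF alone, and CAP7 libraries overlapped it. The log2 change was -0.77 ± 0.090 with TNF (adjusted p = 2.56e-09), -0.68 ± 0.090 with SCO, -0.79 ± 0.090 with CAP7 and -0.56 ± 0.090 with ROSI. In TNF cultures it was -0.56 ± 0.090 with SCO (adjusted p = 8.57e-06), -0.20 ± 0.090 with CAP7 (adjusted p = 0.0928) and -0.27 ± 0.090 with ROSI (adjusted p = 0.0161). The ROSI call was lost on leaving out TNF plus ROSI replicate 3 (adjusted p = 0.0588). The value with CAP7 was called with library size alone or no filter on low counts or in 1 of 8 fits without 1 library (adjusted p down to 0.00798).

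Col1a2 was at 3376, 3348, 3357 and 3375 CPM with TNF alone, against 4476, 4311, 4084 and 3788 CPM with DMSO. Without TNF, Col1a2 was at 2645, 2723, 2539.7 and 2487 CPM with SCO, 3227, 2861, 2556 and 2596 with CAP7 and 2839, 3004, 2925 and 2951 with ROSI. In TNF cultures, Col1a2 was at 2349, 1822, 1872 and 1973 CPM with SCO, 2288, 2493, 2745 and 2536 with CAP7 and 2433, 2174, 2152 and 2103 with ROSI. Col1a2 fell in all 7 comparisons, with no overlap between the groups in any of them. Its log2 change with TNF was -0.31 ± 0.072 (adjusted p = 4.20e-04), beside -0.77 for Col1a1, and the Col1a2 to Col1a1 ratio of CPM was 4.46 to 5.15 in TNF libraries and 3.34 to 3.65 in DMSO libraries, without overlap. The compounds changed Col1a2 by -0.68 ± 0.073, -0.57 ± 0.073 and -0.51 ± 0.073 without TNF (SCO, CAP7, ROSI) and by -0.75 ± 0.073, -0.42 ± 0.072 and -0.60 ± 0.073 in TNF cultures (largest adjusted p = 1.36e-05).

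Collagen V starts the assembly of collagen I fibrils and limits their width; its chains are encoded by Col5a1, Col5a2 and Col5a3. Col5a2 was at 188, 188, 189.8 and 185 CPM with TNF alone, against 254, 271, 253 and 228 CPM with DMSO. Without TNF, Col5a2 was at 163, 149.6, 141 and 142 CPM with SCO, 178, 148, 164 and 139.6 with CAP7 and 126, 138, 120.4 and 117 with ROSI. In TNF cultures, Col5a2 was at 146, 134, 122 and 125 CPM with SCO, 151, 161, 157 and 149 with CAP7 and 130.2, 126, 119 and 126 with ROSI. Col5a2 was lower in all 7 comparisons, and the groups did not overlap in any of them. The changes were -0.42 ± 0.069 with TNF, -0.76 ± 0.070, -0.68 ± 0.070 and -1.01 ± 0.070 with SCO, CAP7 and ROSI without TNF, and -0.51 ± 0.070, -0.28 ± 0.069 and -0.59 ± 0.070 with TNF (largest adjusted p = 0.00145). Col5a1 averaged 108 ± 1.29 CPM with TNF alone and 146 ± 2.05 CPM with DMSO (-0.44 ± 0.070). It fell with SCO, CAP7 and ROSI without TNF (-0.43 ± 0.071, -0.28 ± 0.070 and -0.35 ± 0.070) and with SCO and ROSI in TNF cultures (-0.48 ± 0.070 and -0.26 ± 0.070), and was at -0.053 ± 0.070 with CAP7 (adjusted p = 0.617).

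Col5a3, a chain of collagen V found in fewer tissues than the other chains, took the opposite course to Col5a1 and Col5a2 without TNF. Col5a3 was at 106, 97.3, 114 and 91.2 CPM with TNF alone, against 66.5, 67.5, 57.9 and 55.9 CPM with DMSO. Without TNF, Col5a3 was at 97.1, 87.5, 94.7 and 90.4 CPM with SCO, 95.5, 90.2, 83.6 and 83.1 with CAP7 and 92.8, 95.8, 104 and 88.4 with ROSI. In TNF cultures, Col5a3 was at 82.6, 78.2, 84.9 and 81.7 CPM with SCO, 76.2, 68.3, 72.5 and 84.6 with CAP7 and 76.9, 80.1, 80.2 and 84.5 with ROSI. TNF libraries and the libraries of each compound lay above all DMSO libraries. Once TNF was present, the libraries of each compound lay below all libraries of TNF alone. Col5a3 rose by 0.72 ± 0.075 with TNF (adjusted p = 1.27e-10) and by 0.57 ± 0.076, 0.51 ± 0.075 and 0.62 ± 0.075 with SCO, CAP7 and ROSI without TNF. It fell by 0.32, 0.44 and 0.35 on the log2 scale with SCO, CAP7 and ROSI in TNF cultures (largest adjusted p = 0.00109). The difference between the effect with TNF and without it was -0.90 ± 0.11 for SCO, -0.94 ± 0.11 for CAP7 and -0.96 ± 0.11 for ROSI (adjusted p = 1.44e-07, 1.40e-08 and 6.03e-09). The direction of the response of Col5a3 thus turned with the state for each compound. The Col5a3 to Col5a1 ratio of CPM averaged 0.950 ± 0.0852 with TNF alone, 0.853 ± 0.0347 with SCO, 0.736 ± 0.0245 with CAP7 and 0.8293 ± 0.0238 with ROSI, against 0.425 ± 0.0435 with DMSO (SD, n = 4).

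**Figure D2:**
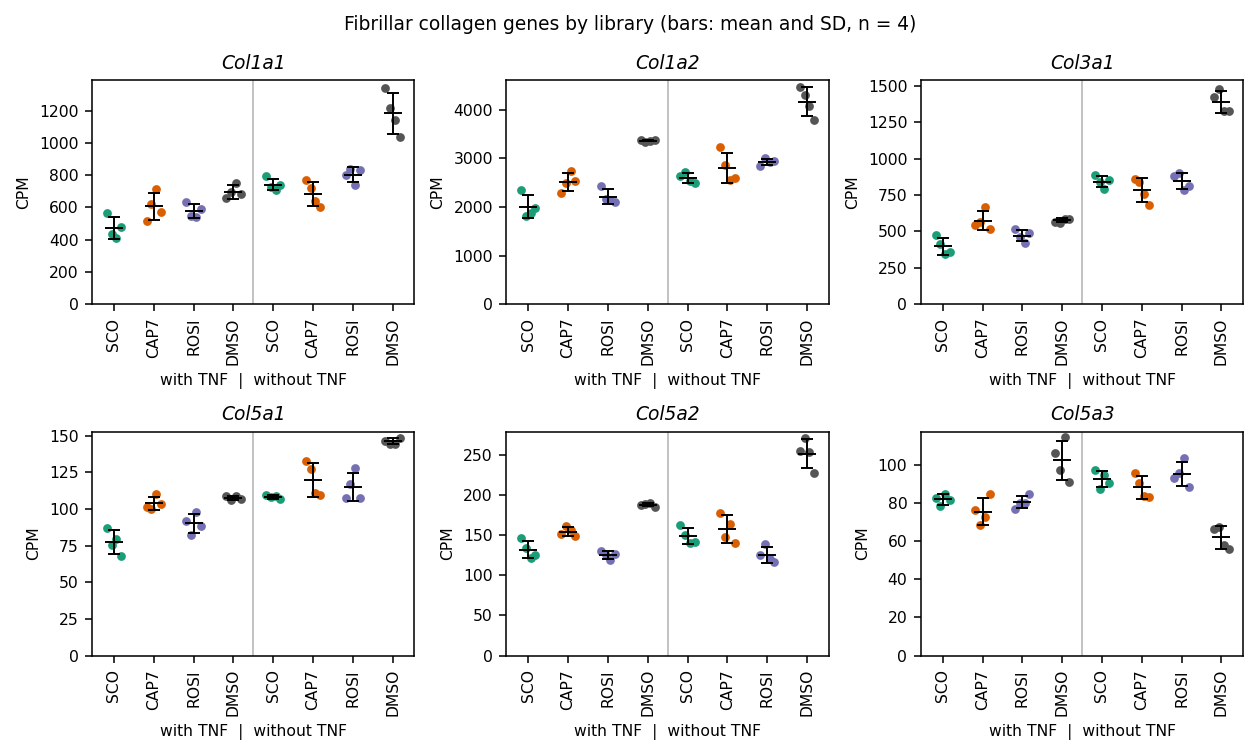
Level of 6 fibrillar collagen genes in each library, in CPM (vertical axis from 0), with groups with TNF left of the line and groups without TNF right of it. Points are libraries and bars the mean and SD of 4. Col3a1 averaged 575 ± 14.0 CPM with TNF alone and 1392 ± 75.3 CPM with DMSO, and Col5a3 is the only 1 of the 6 with TNF alone above DMSO.

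Fibrillar collagens better known from cartilage were at low levels. Col11a1, which initiates cartilage fibrils, was at 1.15, 1.07, 1.66 and 1.08 CPM with TNF alone, against 8.20, 8.67, 6.46 and 6.21 CPM with DMSO. The groups stood well apart (-2.56 ± 0.26, adjusted p = 6.32e-11). ROSI lowered it further in TNF cultures, to 0.207, 0.434, 0.774 and 0.214 CPM (counts of 3, 10, 28 and 4, against 28, 21, 48 and 27 with TNF alone; -1.43 ± 0.33, adjusted p = 5.76e-04). Without replicate 3 of TNF plus ROSI the change was -2.04. In TNF cultures it was at 0.833, 0.719, 0.822 and 0.769 CPM with SCO and 1.33, 0.561, 0.489 and 0.714 CPM with CAP7. These did not pass the test (-0.66 ± 0.30 and -0.69 ± 0.30). The value with CAP7 was called with library size alone or in 1 of 8 fits without 1 library (adjusted p down to 0.0098). Col27a1 was at 10.6, 9.76, 11.5 and 16.2 CPM with TNF plus ROSI, against 7.47, 6.93, 8.46 and 5.12 CPM with TNF alone. It was at 10.0, 8.31, 10.6 and 11.2 CPM with ROSI, against 6.81, 4.98, 8.90 and 6.63 CPM with DMSO. It rose with ROSI in both states (0.77 ± 0.20 with TNF, adjusted p = 0.00163; 0.55 ± 0.20 without, adjusted p = 0.0302). The groups overlapped without TNF, and that call was lost with library size alone or on leaving out DMSO replicate 1, 2 or 4 or ROSI replicate 1, 3 or 4 (adjusted p up to 0.127). Col27a1 with SCO and CAP7 was between 0.047 and 0.32 on the log2 scale in both states, and Col11a2 passed in none of the 7 comparisons.

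The collagen IV genes Col4a1 and Col4a2 changed by small amounts, and Col4a5 fell throughout. Of the 3 tested genes, TNF raised Col4a1 and lowered Col4a5, and SCO lowered all 3 in both states. CAP7 lowered Col4a5 alone in each state. ROSI lowered Col4a2 and Col4a5 without TNF, and in TNF cultures it raised Col4a1 and lowered Col4a5. Over all genes tested, calls covered 54.2% with TNF and 19.3%, 30.3% and 37.4% with SCO, CAP7 and ROSI without TNF. In TNF cultures they covered 21.3%, 32.2% and 35.9%. The class summed to 1171 ± 47.6 CPM with TNF plus SCO, 1377 ± 78.3 with TNF plus CAP7, 1524 ± 76.3 with TNF plus ROSI and 1359 ± 30.8 with TNF alone, and to 1050.3 ± 18.2 with SCO, 1135 ± 88.0 with CAP7, 1096 ± 50.4 with ROSI and 1216 ± 61.3 with DMSO (SD, n = 4).

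Col4a1 and Col4a2, the chains of the collagen IV found in nearly all basement membranes, are read in opposite directions from a shared stretch of DNA, and their windows (RefSeq, GRCm38.p6) are shown for that reason. The gene starts lie 21 bases apart. The windows, at chr8:11312777-11313076, minus strand (Col4a1) and chr8:11312555-11312854, plus strand (Col4a2), share 78 bases, chr8:11312777-11312854, given in capitals; each is written in the direction of its own gene.
Col4a1: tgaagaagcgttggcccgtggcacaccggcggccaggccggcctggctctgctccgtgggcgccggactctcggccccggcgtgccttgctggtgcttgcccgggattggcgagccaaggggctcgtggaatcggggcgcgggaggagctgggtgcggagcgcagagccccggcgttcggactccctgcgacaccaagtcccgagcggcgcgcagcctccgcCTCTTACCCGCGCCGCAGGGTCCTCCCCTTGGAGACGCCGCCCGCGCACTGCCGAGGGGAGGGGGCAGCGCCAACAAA
Col4a2: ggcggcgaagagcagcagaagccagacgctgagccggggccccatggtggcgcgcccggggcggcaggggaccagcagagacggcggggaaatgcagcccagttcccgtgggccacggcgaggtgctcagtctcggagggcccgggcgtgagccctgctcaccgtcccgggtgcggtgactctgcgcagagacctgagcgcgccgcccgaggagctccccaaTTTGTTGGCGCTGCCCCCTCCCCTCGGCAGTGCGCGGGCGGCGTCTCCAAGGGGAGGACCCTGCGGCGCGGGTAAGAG

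Col4a1 was at 938, 903, 936 and 942 CPM with TNF alone, against 823, 840.5, 827 and 747 CPM with DMSO. Without TNF, Col4a1 was at 713, 716, 687 and 697 CPM with SCO, 832, 728, 698 and 737 with CAP7 and 720.2, 739.5, 697 and 799 with ROSI. In TNF cultures, Col4a1 was at 842, 817, 771 and 810.4 CPM with SCO, 1003, 893, 952 and 902 with CAP7 and 1058, 1016, 1049 and 1131 with ROSI. TNF libraries lay above all DMSO libraries. SCO libraries lay below their controls in both states, and ROSI libraries lay above TNF alone. Col4a1 rose by 0.20 ± 0.057 with TNF (adjusted p = 0.00309) and by 0.19 ± 0.057 with ROSI in TNF cultures (adjusted p = 0.00655), and with SCO it was at -0.20 ± 0.057 without TNF and -0.20 ± 0.057 with it (larger adjusted p = 0.00919). The ROSI call was lost with library size alone (adjusted p = 0.641). The values with CAP7 did not pass the test in either state, nor did ROSI without TNF. The last was called with library size alone, the stricter filter or limma-voom or in 2 of 8 fits without 1 library (adjusted p down to 0.00019), and CAP7 without TNF with library size alone or in 2 of 8 fits without 1 library (adjusted p down to 0.00248).

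Col4a2 was at 417, 397, 434 and 410.0 CPM with TNF alone, against 398, 412, 378 and 362 CPM with DMSO. Without TNF, Col4a2 was at 347, 327, 334 and 323 CPM with SCO, 413, 356, 344 and 375 with CAP7 and 339, 339, 346 and 357 with ROSI. In TNF cultures, Col4a2 was at 369.8, 335, 327 and 369 CPM with SCO, 463, 389, 434 and 431 with CAP7 and 447, 416, 454 and 487 with ROSI. Here TNF and DMSO libraries overlapped, and SCO libraries lay below their controls in both states. Col4a2 changed by -0.22 ± 0.062 with SCO without TNF (adjusted p = 0.00995) and by -0.24 ± 0.062 with TNF (adjusted p = 0.00337), and by -0.17 ± 0.062 with ROSI without TNF (adjusted p = 0.034). The ROSI call was lost with no filter on low counts or on leaving out DMSO replicate 1 or 2 or ROSI replicate 1, 2 or 3 (adjusted p up to 0.129). The SCO call without TNF was lost on leaving out DMSO replicate 2 (adjusted p = 0.0521). The Col4a1 to Col4a2 ratio of CPM stayed within 2.20 to 2.44 with TNF plus SCO, 2.09 to 2.30 with TNF plus CAP7, 2.31 to 2.44 with TNF plus ROSI and 2.16 to 2.30 with TNF alone, and within 2.05 to 2.19 with SCO, 1.97 to 2.04 with CAP7, 2.01 to 2.24 with ROSI and 2.04 to 2.19 with DMSO. In the GENCODE annotation of GRCm38 the 3′ end of Col4a1 lies in the opposite-strand gene Gm15418, so its counts are uncertain where strand was not used.

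Col4a5 encodes a chain of the collagen IV of specialised membranes such as those of the kidney. Col4a5 was at 15.0, 14.5, 15.2 and 13.1 CPM with TNF alone, against 19.6, 19.6, 18.5 and 19.9 CPM with DMSO. Without TNF, Col4a5 was at 13.8, 12.5, 15.3 and 15.4 CPM with SCO, 15.0, 15.3, 13.6 and 13.7 with CAP7 and 10.5, 11.3, 12.5 and 12.5 with ROSI. In TNF cultures, Col4a5 was at 12.3, 10.1, 12.8 and 7.45 CPM with SCO, 8.19, 10.9, 11.6 and 10.1 with CAP7 and 8.92, 7.50, 11.6 and 7.66 with ROSI. It was lower in all 7 comparisons with no overlap between groups. The changes ran from -0.42 ± 0.13 with SCO in TNF cultures to -0.73 ± 0.13 with ROSI without TNF, and TNF gave -0.43 ± 0.13 (largest adjusted p = 0.0167). The call for SCO without TNF was lost on leaving out SCO replicate 2 (adjusted p = 0.0643), and that in TNF cultures was lost on leaving out TNF plus SCO replicate 2 or 4 (adjusted p up to 0.106).

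Laminins are built from an alpha, a beta and a gamma chain. Of the 10 tested laminins, nidogens and perlecan, TNF raised 2 and lowered 4. Without TNF, SCO raised 1 and lowered 4, CAP7 raised 2 and lowered 3, and ROSI raised 2 and lowered 6. Added to TNF, SCO raised 1 and lowered 3, CAP7 raised 3 and lowered 4, and ROSI raised 3 and lowered 4. Called genes were 60% of the class with TNF, against 54.2% of all genes tested. With SCO, CAP7 and ROSI without TNF they were 50%, 50% and 80%, against 19.3%, 30.3% and 37.4%. In TNF cultures they were 40%, 70% and 70%, against 21.3%, 32.2% and 35.9%. The summed level was 722 ± 43.2 CPM with TNF plus SCO, 707 ± 39.3 with TNF plus CAP7, 760.2 ± 36.5 with TNF plus ROSI and 655 ± 34.1 with TNF alone, and 711 ± 23.4 with SCO, 761 ± 29.2 with CAP7, 764 ± 31.8 with ROSI and 706 ± 10.2 with DMSO (SD, n = 4). Lama4, Lamb1 and Lamc1, whose chains together form the main laminin of fat cell and vessel membranes, did not move together.

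Lamb1 was at 206, 198, 217 and 202 CPM with TNF alone, against 218, 207, 237 and 214 CPM with DMSO. Without TNF, Lamb1 was at 223, 235, 249 and 208 CPM with SCO, 255, 243, 237 and 271 with CAP7 and 276, 279, 294 and 306 with ROSI. In TNF cultures, Lamb1 was at 220.2, 215, 233 and 247 CPM with SCO, 278, 255, 246 and 282 with CAP7 and 285, 312, 343 and 313 with ROSI. Lamb1 libraries with CAP7 and with ROSI lay above their controls in both states, whereas those with SCO and with TNF alone overlapped theirs. It rose by 0.20 ± 0.066 with CAP7 (adjusted p = 0.0176) and 0.40 ± 0.066 with ROSI (adjusted p = 5.51e-06), and in TNF cultures by 0.37 ± 0.066 with CAP7 (adjusted p = 2.51e-05) and 0.60 ± 0.066 with ROSI (adjusted p = 8.75e-10). The call for CAP7 without TNF was lost with library size alone or on leaving out DMSO replicate 1, 2 or 4 or CAP7 replicate 4 (adjusted p up to 0.327).

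Lamc1 was at 88.0, 83.7, 96.7 and 81.2 CPM with TNF alone, against 81.2, 80.5, 81.3 and 80.8 CPM with DMSO. Without TNF, Lamc1 was at 63.9, 70.6, 78.0 and 67.0 CPM with SCO, 67.7, 69.8, 67.1 and 75.4 with CAP7 and 57.8, 55.2, 64.0 and 54.0 with ROSI. In TNF cultures, Lamc1 was at 69.0, 79.5, 97.7 and 79.8 CPM with SCO, 74.7, 70.0, 69.2 and 79.2 with CAP7 and 55.2, 67.3, 73.4 and 66.0 with ROSI. Lamc1 libraries with ROSI lay below their controls in both states, and with CAP7 in TNF cultures as well. The changes were -0.49 ± 0.086 with ROSI (adjusted p = 1.65e-05), -0.41 ± 0.085 with TNF plus ROSI (adjusted p = 1.39e-04) and -0.25 ± 0.084 with TNF plus CAP7 (adjusted p = 0.018). The last call was lost on leaving out TNF alone replicate 3 or TNF plus CAP7 replicate 2 or 3 (adjusted p up to 0.0952). Without TNF, SCO and CAP7 gave -0.21 ± 0.086 and -0.21 ± 0.086, with every library below those of DMSO. These missed the threshold (adjusted p = 0.0798 and adjusted p = 0.0612). SCO was called with library size alone, the stricter filter, the replicate block or the spread of the compared libraries only or in 1 of 8 fits without 1 library (adjusted p down to 0.0176). CAP7 was called with library size alone, the stricter filter, the replicate block, DESeq2 or the spread of the compared libraries only or in 1 of 8 fits without 1 library (adjusted p down to 0.00376).

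Lama4 was at 92.4, 90.5, 98.3 and 89.8 CPM with TNF alone, against 108, 111, 106 and 113 CPM with DMSO. Without TNF, Lama4 was at 103, 112, 111 and 97.1 CPM with SCO, 126, 120.0, 116 and 117 with CAP7 and 101, 118, 137 and 115 with ROSI. In TNF cultures, Lama4 was at 93.8, 94.9, 107 and 101 CPM with SCO, 88.3, 95.7, 82.7 and 113 with CAP7 and 81.7, 105, 90.8 and 92.5 with ROSI. Lama4 fell with TNF (-0.24 ± 0.083, adjusted p = 0.0134), with no overlap between the groups. With the compounds it lay between -0.052 and 0.13 on the log2 scale and passed in none of the 6 comparisons. Lamb2, the beta chain of laminins at synapses and in the kidney filter, fell in all 6 compound comparisons, between -0.51 ± 0.13 with CAP7 and -0.95 ± 0.13 with ROSI in TNF cultures (largest adjusted p = 0.00264). The Lamb2 to Lamb1 ratio of CPM was 0.0638 ± 0.00604, 0.0533 ± 0.0103 and 0.0381 ± 0.00194 with SCO, CAP7 and ROSI in TNF cultures, against 0.112 ± 0.0131 with TNF alone. Without TNF it was 0.0536 ± 0.00821, 0.0556 ± 0.00841 and 0.0409 ± 0.00233 with the same compounds, against 0.0912 ± 0.00601 with DMSO (SD, n = 4).

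Nid1, the nidogen that links laminin to collagen IV, was the 1 member that rose in all 6 compound comparisons. Nid1 was at 176, 182, 189 and 168 CPM with TNF alone, against 200.03, 206, 193 and 211 CPM with DMSO. Without TNF, Nid1 was at 250.2, 237, 232 and 242 CPM with SCO, 246, 236, 233 and 250.2 with CAP7 and 243, 236, 242 and 248 with ROSI. In TNF cultures, Nid1 was at 232, 238, 249 and 266 CPM with SCO, 205, 203, 197 and 202 with CAP7 and 231, 236, 219 and 217 with ROSI. Every compound library lay above all libraries of its control in both states, and TNF libraries lay below all DMSO libraries. Nid1 rose by 0.25 ± 0.052, 0.25 ± 0.052 and 0.26 ± 0.052 with SCO, CAP7 and ROSI without TNF and by 0.46 ± 0.052, 0.18 ± 0.052 and 0.34 ± 0.052 in TNF cultures (largest adjusted p = 0.00821), and changed by -0.18 ± 0.052 with TNF (adjusted p = 0.00355). The call for ROSI without TNF was lost with library size alone (adjusted p = 0.0921), that for CAP7 in TNF cultures was lost with library size alone or no filter on low counts or on leaving out TNF alone replicate 4 (adjusted p up to 0.345), and that for TNF alone was lost with no filter on low counts (adjusted p = 0.0804).

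Nid2, the second nidogen, averaged 8.75 ± 1.33 CPM with TNF alone and 17.7 ± 1.86 CPM with DMSO (-1.01 ± 0.16, adjusted p = 6.63e-07). It fell with each compound without TNF (-0.78 ± 0.16, -0.50 ± 0.15 and -1.16 ± 0.16 with SCO, CAP7 and ROSI) and missed the threshold with them in TNF cultures (-0.34 ± 0.16, 0.0047 ± 0.16 and -0.40 ± 0.16). There the value with ROSI (adjusted p = 0.051) was called with RLE factors, library size alone, no filter on low counts, the stricter filter, the replicate block or DESeq2 or in 3 of 8 fits without 1 library (adjusted p down to 0.00526). In the GENCODE annotation of GRCm38 its 3′ end lies in the opposite-strand gene Rtraf, so its counts carry the same uncertainty. Hspg2, which encodes perlecan, a heparan sulphate proteoglycan, passed in 1 of the 7 comparisons, SCO in TNF cultures (-0.33 ± 0.11, adjusted p = 0.0312), with overlapping libraries, and that call was lost on leaving out TNF alone replicate 2, 3 or 4 or TNF plus SCO replicate 1, 2 or 4 (adjusted p up to 0.132). ROSI in TNF cultures (-0.27 ± 0.11, adjusted p = 0.0647) was called with library size alone, no filter on low counts, the stricter filter or the spread of the compared libraries only or in 2 of 8 fits without 1 library (adjusted p down to 0.00264).

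Laminin chains best known from epithelia were at low levels. Lama5, an alpha chain of epithelial and vessel membranes, was at 6.39, 7.39, 9.02 and 7.20 CPM with TNF alone, against 1.26, 1.10, 0.857 and 1.34 CPM with DMSO (2.71 ± 0.31, adjusted p = 1.82e-09). In TNF cultures it was at 3.37, 1.08, 3.19 and 2.54 CPM with SCO, 2.14, 1.68, 2.73 and 2.93 with CAP7 and 3.04, 1.17, 1.96 and 1.34 with ROSI. All of these libraries lay below TNF alone (-1.55 ± 0.28, -1.65 ± 0.28 and -2.02 ± 0.29). Without TNF, Lama5 had 2, 6, 5 and 8 counts with SCO, 18, 16, 6 and 22 with CAP7 and 2, 2, 3 and 1 with ROSI, against 29, 17, 13 and 16 with DMSO. It fell with SCO (-1.69 ± 0.43, adjusted p = 0.00394; 0.0557 in limma-voom) and with ROSI (-3.42 ± 0.51, adjusted p = 8.48e-07), on few counts, and with CAP7 it was at -0.70 ± 0.36 (adjusted p = 0.15).

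Lamb3, a beta chain of the laminin that anchors skin epithelium, fell with TNF. Lamb3 was at 5.07, 3.47, 4.96 and 3.84 CPM with TNF alone, against 18.3, 17.3, 17.9 and 17.0 CPM with DMSO. Without TNF, Lamb3 was at 10.4, 12.1, 9.37 and 13.4 CPM with SCO, 18.7, 14.8, 20.2 and 11.2 with CAP7 and 8.85, 6.57, 6.83 and 9.52 with ROSI. In TNF cultures, Lamb3 was at 4.39, 8.49, 4.57 and 4.73 CPM with SCO, 10.8, 8.004, 6.93 and 8.38 with CAP7 and 6.91, 7.42, 5.14 and 5.63 with ROSI. TNF libraries lay below all DMSO libraries (-2.01 ± 0.19, adjusted p = 1.52e-11). Without TNF, SCO and ROSI libraries lay below DMSO (-0.64 ± 0.18 and -1.14 ± 0.19). With TNF, CAP7 and ROSI libraries lay above TNF alone (0.97 ± 0.19, adjusted p = 1.20e-04, and 0.51 ± 0.20, adjusted p = 0.0404). The call for TNF plus ROSI was lost with library size alone or limma-voom or on leaving out TNF alone replicate 2 or 4 or TNF plus ROSI replicate 1 or 2 (adjusted p up to 0.15), and that for SCO without TNF was lost on leaving out SCO replicate 3 (adjusted p = 0.0508). The effect of each compound differed between the states, by 0.98 ± 0.27 for SCO, 1.10 ± 0.26 for CAP7 and 1.66 ± 0.27 for ROSI (adjusted p = 0.0249, 0.00278 and 1.83e-05). The SCO difference was lost with limma-voom or on leaving out SCO replicate 3, TNF alone replicate 2 or 4 or TNF plus SCO replicate 2 (adjusted p up to 0.132). Lama3, the alpha chain of that laminin, did not pass the filter. In the GENCODE annotation of GRCm38, Lamb3 overlaps the opposite-strand genes G0s2 and Hsd11b1, though not at its 3′ end. Its counts are thus also uncertain where strand was not used.

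**Figure D3:**
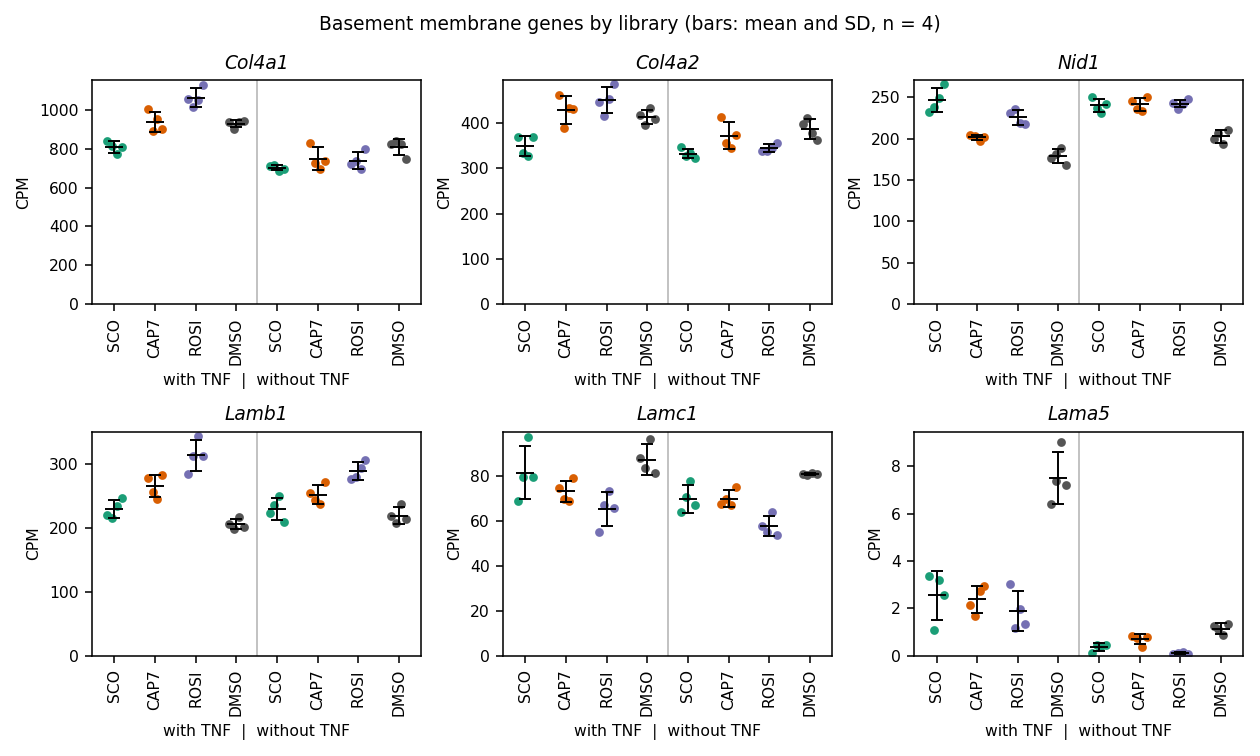
Level of 6 basement membrane genes in each library, in CPM (vertical axis from 0), with groups with TNF left of the line and groups without TNF right of it. Points are libraries and bars the mean and SD of 4. Nid1 averaged 246 ± 14.7 CPM with TNF plus SCO and 179 ± 8.59 CPM with TNF alone, and 240.2 ± 8.02 CPM with SCO and 203 ± 7.56 CPM with DMSO.

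Among the 14 other collagens tested, TNF raised 4, Col17a1 among them, and lowered 5. Without TNF, SCO lowered 3, CAP7 raised 2 and lowered 3, and ROSI raised 3 and lowered 2. In TNF cultures, SCO raised 1 and lowered 2, CAP7 raised 2 and lowered 1, and ROSI raised 4 and lowered 2. Called genes were 64.3% of the class with TNF, against 54.2% of all genes tested. With SCO, CAP7 and ROSI without TNF they were 21.4%, 35.7% and 35.7%, against 19.3%, 30.3% and 37.4%. In TNF cultures they were 21.4%, 21.4% and 42.9%, against 21.3%, 32.2% and 35.9%. Most of these shares lay near those of all genes. Collagen VI is assembled from chains encoded by Col6a1, Col6a2 and Col6a3, and its chains changed unequally with TNF.

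Col6a1 was at 365, 319, 367 and 362 CPM with TNF alone, against 513, 524, 527 and 561 CPM with DMSO. Without TNF, Col6a1 was at 533, 552, 583 and 535 CPM with SCO, 565, 533, 476 and 555 with CAP7 and 614, 628, 642 and 539 with ROSI. In TNF cultures, Col6a1 was at 339, 352, 358 and 318 CPM with SCO, 353, 368, 373 and 365 with CAP7 and 376, 404, 422 and 425 with ROSI. TNF libraries lay below all DMSO libraries (-0.59 ± 0.062, adjusted p = 2.03e-10). ROSI raised Col6a1 by 0.19 ± 0.062 without TNF, where the groups overlapped, and by 0.20 ± 0.062 with TNF, where they did not (larger adjusted p = 0.0144). The call without TNF was lost with library size alone or on leaving out ROSI replicate 3 (adjusted p up to 0.558) and that with TNF was lost with library size alone or on leaving out TNF alone replicate 2 (adjusted p up to 0.587).

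Col6a2 was at 234, 207, 227 and 233 CPM with TNF alone, against 526, 518, 465 and 509 CPM with DMSO. Without TNF, Col6a2 was at 520.1, 525, 562 and 518 CPM with SCO, 554, 569.8, 490.3 and 529 with CAP7 and 681, 675, 658 and 585 with ROSI. In TNF cultures, Col6a2 was at 229.7, 218, 220.2 and 212 CPM with SCO, 262, 253, 292 and 255 with CAP7 and 290.2, 257, 294 and 317 with ROSI. Col6a2 fell by 1.16 on the log2 scale with TNF (SE 0.066, adjusted p = 4.94e-18), without overlap. It rose with ROSI by 0.37 ± 0.065 without TNF and 0.36 ± 0.065 with TNF, and with CAP7 by 0.24 ± 0.065 with TNF (adjusted p = 0.00423; 0.101 with library size alone).

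Col6a3 also yields endotrophin, a fragment released by fat tissue. Col6a3 was at 1133, 1036, 1139 and 1085 CPM with TNF alone, against 945, 920.2, 992 and 945 CPM with DMSO. Without TNF, Col6a3 was at 1111, 1033, 1109 and 1004 CPM with SCO, 1163, 1034, 984 and 1182 with CAP7 and 1200.5, 1099, 1262 and 1285 with ROSI. In TNF cultures, Col6a3 was at 1031, 998, 1080.5 and 1077 CPM with SCO, 1248, 916, 895 and 1056 with CAP7 and 1216, 1304, 1442 and 1403 with ROSI. TNF libraries lay above all DMSO libraries, so Col6a3 rose (0.21 ± 0.076, adjusted p = 0.0199) where its partners fell. That call was lost on leaving out DMSO replicate 2 or TNF alone replicate 1 or 3 (adjusted p up to 0.065). ROSI raised it by 0.35 ± 0.077 without TNF and 0.29 ± 0.076 with TNF (adjusted p = 0.00258; 0.177 with library size alone), and CAP7 without TNF by 0.20 ± 0.076 (adjusted p = 0.0453), with overlapping groups. The CAP7 call was lost with RLE factors, library size alone or the stricter filter or on leaving out DMSO replicate 1, 2 or 4 or CAP7 replicate 1 or 4 (adjusted p up to 0.416). The Col6a3 to Col6a1 ratio of CPM was 3.00 to 3.25 in libraries of TNF alone and 1.68 to 1.88 in DMSO libraries, and the Col6a3 to Col6a2 ratio 4.66 to 5.02 and 1.78 to 2.14, without overlap. With TNF plus SCO, CAP7 and ROSI the Col6a3 to Col6a1 ratio averaged 3.07 ± 0.230, 2.83 ± 0.521 and 3.30 ± 0.0889, against 3.11 ± 0.103 with TNF alone.

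Col15a1 and Col18a1 encode collagens of the basement membrane zone that carry sugar chains and release the fragments restin and endostatin. They moved in opposite directions with TNF. Col15a1 was at 78.7, 69.4, 72.0 and 80.0 CPM with TNF alone, against 167, 169, 161 and 163 CPM with DMSO. Without TNF, Col15a1 was at 177, 177, 197 and 176 CPM with SCO, 229.6, 195, 195 and 193 with CAP7 and 168, 183, 183 and 193 with ROSI. In TNF cultures, Col15a1 was at 104, 120.4, 110.3 and 133 CPM with SCO, 154, 127, 118 and 155 with CAP7 and 111, 136, 143 and 146 with ROSI. TNF libraries lay below all DMSO libraries, and in TNF cultures the libraries of all 3 compounds lay above TNF alone. Col15a1 fell with TNF (-1.14 ± 0.087, adjusted p = 3.14e-14) and rose by 0.64 ± 0.086, 0.89 ± 0.086 and 0.84 ± 0.086 with SCO, CAP7 and ROSI in TNF cultures (largest adjusted p = 2.70e-07). Its mean with TNF alone was 45.4% of that with DMSO, and 70.9%, 83.9% and 81.2% with SCO, CAP7 and ROSI added to TNF. Without TNF the changes were 0.14 ± 0.085, 0.30 ± 0.085 and 0.14 ± 0.085, and only that of CAP7 passed (adjusted p = 0.0062; 0.0893 with library size alone). The effect in TNF cultures was larger than without TNF by 0.50 ± 0.12 for SCO, 0.59 ± 0.12 for CAP7 and 0.70 ± 0.12 for ROSI (largest adjusted p = 0.00791).

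Col18a1 averaged 52.7 ± 8.16 CPM with TNF plus SCO, 58.6 ± 6.20 with TNF plus CAP7, 44.1 ± 1.33 with TNF plus ROSI and 75.4 ± 1.31 with TNF alone. Without TNF it averaged 25.1 ± 1.85 CPM with SCO, 22.9 ± 0.940 with CAP7, 21.5 ± 3.69 with ROSI and 37.1 ± 1.95 with DMSO (SD, n = 4). It rose with TNF (1.02 ± 0.095, adjusted p = 6.64e-12) and fell in all 6 compound comparisons, from -0.36 ± 0.092 with CAP7 in TNF cultures to -0.79 ± 0.099 with ROSI without TNF, with no overlap. In the GENCODE annotation of GRCm38 its 3′ end lies in the opposite-strand gene Slc19a1, again a source of uncertain counts.

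Col8a1 encodes a short collagen that forms networks in vessel walls. Col8a1 was at 15.3, 14.2, 16.4 and 12.6 CPM with TNF alone, against 14.2, 10.3, 6.99 and 8.99 CPM with DMSO. Without TNF, Col8a1 was at 5.11, 4.03, 6.25 and 6.98 CPM with SCO, 4.31, 4.01, 3.11 and 3.91 with CAP7 and 2.47, 5.58, 2.84 and 4.43 with ROSI. In TNF cultures, Col8a1 was at 13.4, 10.0, 12.1 and 13.2 CPM with SCO, 8.32, 12.3, 11.9 and 10.6 with CAP7 and 9.82, 9.46, 9.92 and 7.50 with ROSI. It fell with SCO, CAP7 and ROSI without TNF (-0.87 ± 0.20, -1.41 ± 0.20 and -1.45 ± 0.21), where no library overlapped DMSO, and with ROSI in TNF cultures (-0.67 ± 0.18, adjusted p = 0.00348). The rise with TNF (0.51 ± 0.18, adjusted p = 0.0179) came with overlapping groups and was lost on leaving out DMSO replicate 3 or 4 or TNF alone replicate 3 (adjusted p up to 0.103). CAP7 in TNF cultures (-0.44 ± 0.18, adjusted p = 0.0587) was called with library size alone, no filter on low counts, limma-voom or the spread of the compared libraries only or in 2 of 8 fits without 1 library (adjusted p down to 0.0108).

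Collagens XII and XVI coat fibril surfaces. Col16a1 fell with TNF (-0.56 ± 0.11), with SCO in both states (-0.48 ± 0.11 with TNF and -0.36 ± 0.11 without) and with CAP7 without TNF (-0.48 ± 0.11). The call for SCO without TNF was lost on leaving out DMSO replicate 1 or 2 or SCO replicate 3 (adjusted p up to 0.089). Col12a1 fell with TNF (-0.96 ± 0.29, adjusted p = 0.00456), with overlapping groups. Col17a1, a transmembrane collagen of epithelial cells, had 8, 9, 13 and 32 counts with TNF alone, against 5, 1, 0 and 0 counts with DMSO. It rose with TNF (2.80 ± 0.79, adjusted p = 0.00313), by 2.19 without replicate 4 of TNF alone and by 4.44 without replicate 1 of DMSO on the log2 scale, and 32 of its 62 counts with TNF alone came from replicate 4. Its counts with TNF plus SCO, CAP7 and ROSI summed to 53, 34 and 53. Those with DMSO, SCO, CAP7 and ROSI without TNF summed to 6, 0, 1 and 5. Col17a1 thus passed the filter on low counts only through cultures with TNF, where it was high. The test of its rise is not independent of that filter and is no separate support for it. Col7a1, Col9a3, Col23a1 and Col28a1 passed in none of the 7 comparisons with a control. Col23a1 was called in TNF cultures with ROSI with library size alone or limma-voom or in 2 of 8 fits without 1 library (adjusted p down to 0.0401) and with SCO with library size alone or DESeq2 or in 1 of 8 fits without 1 library (adjusted p down to 0.0313), and Col28a1 with CAP7 there with limma-voom or in 1 of 8 fits without 1 library (adjusted p down to 0.00763).

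**Figure D4:**
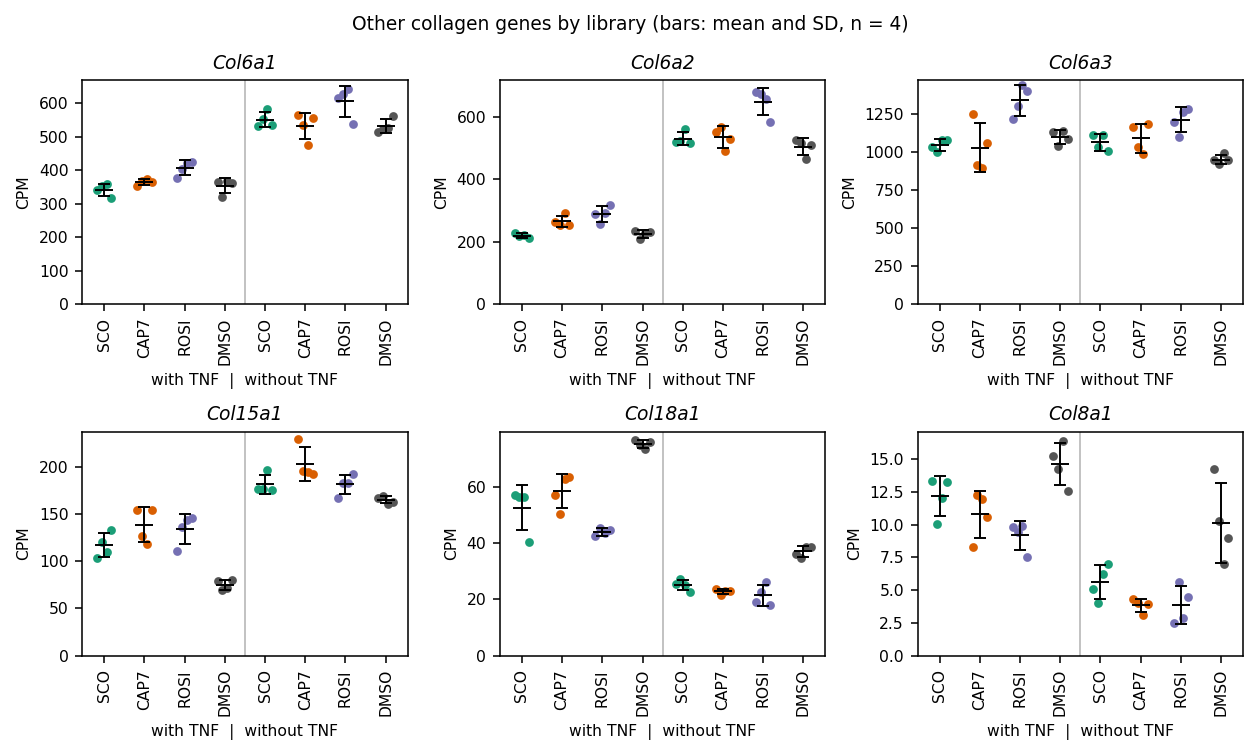
Level of 6 other collagen genes in each library, in CPM (vertical axis from 0), with groups with TNF left of the line and groups without TNF right of it. Points are libraries and bars the mean and SD of 4. Col15a1 averaged 117 ± 12.8, 139 ± 18.6 and 134 ± 15.9 CPM with SCO, CAP7 and ROSI in TNF cultures, above 75.0 ± 5.14 CPM with TNF alone.

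Across the 6 compound comparisons, Col1a2, Col4a5, Col5a2, Col18a1 and Lamb2 fell in all 6 and Nid1 rose in all 6. Col5a3, Lamb3 and Col4a1 rose in some and fell in others, and 9 of the 36 were called in none. The share of all genes tested with the same patterns was not counted, and the compound comparisons within a state share their control libraries. Whether the effect of a compound differed between the states was tested as an interaction. Its log2 change was higher with TNF than without for 2 members and lower for 1 with SCO (4.64% of all genes tested, 3.51% higher and 1.13% lower), higher for 6 and lower for 1 with CAP7 (16.2% of all genes tested, 10.3% higher and 5.92% lower) and higher for 7 and lower for 2 with ROSI (14.6% of all genes tested, 10.1% higher and 4.51% lower). For CAP7 these included the fibrillar genes Col3a1 (0.82 ± 0.12, adjusted p = 1.89e-06), Col1a1 (0.60 ± 0.13, adjusted p = 8.13e-04) and Col5a2 (0.40 ± 0.098, adjusted p = 0.00402). CAP7 lowered all 3 without TNF. In TNF cultures it lowered Col5a2 (-0.28 ± 0.069), with Col3a1 at -0.0028 ± 0.083 (adjusted p = 0.987) and Col1a1 at -0.20 ± 0.090 (adjusted p = 0.0928), against controls whose own levels differed. For ROSI the Col3a1 difference was 0.43 ± 0.12 (adjusted p = 0.00833) and for SCO 0.19 ± 0.12 (adjusted p = 0.47). The largest called difference was that of Lamb3 with ROSI. Col4a1 and Col4a2 with ROSI differed by 0.33 ± 0.081 (adjusted p = 0.00382) and 0.29 ± 0.088 (adjusted p = 0.0212). The second was lost with no filter on low counts or on leaving out DMSO replicate 1 or 2, TNF alone replicate 2 or 4 or TNF plus ROSI replicate 4 (adjusted p up to 0.0708).

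**Figure D5:**
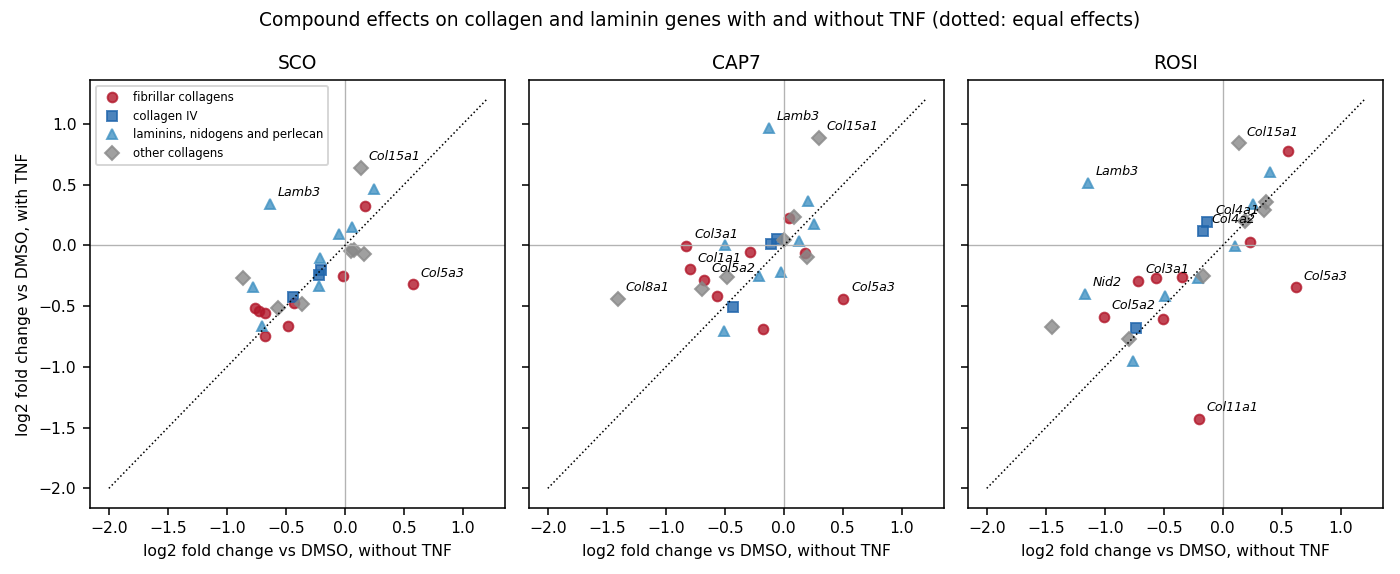
Log2 change with a compound in TNF cultures (vertical axis) against that without TNF (horizontal axis), 1 panel per compound, for 27 tested members with a mean of at least 3 CPM. The dotted diagonal marks equal changes, and only the named points were called as differing between the states. Col5a3 is at -0.44 with TNF and 0.51 without for CAP7, and Lamb3 at 0.51 and -1.14 for ROSI.

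Pairs of compounds were compared directly in each state, 6 comparisons in all, at doses that the labels do not state. Without TNF, SCO and CAP7 differed in 0 of 36 members in edgeR (all calls covered 6.04% of all genes tested, 3.01% higher and 3.04% lower). DESeq2 called 1 and limma-voom 0. The interval of the difference was -0.067 to 0.27 for Col3a1 and -0.11 to 0.099 for Nid1 (log2). SCO against ROSI without TNF gave 3 higher and 2 lower (14.7% of all genes tested, 7.39% higher and 7.33% lower; 8 and 2 with library size alone), among them Lamb1 (-0.33 ± 0.066) and Col6a2 (-0.29 ± 0.065), lower with SCO. CAP7 against ROSI gave 5 higher and 3 lower (11.7% of all genes tested, 5.39% higher and 6.27% lower; 5 and 1 with library size alone), with Lama5 (2.72 ± 0.53), Lamb3 (1.01 ± 0.18) and Nid2 (0.66 ± 0.16) higher with CAP7.

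In TNF cultures both pairs with SCO gave more calls than without TNF in the main fit, and CAP7 against ROSI gave 7, against 8 without TNF. With library size alone, SCO against ROSI gave 10 calls without TNF and 9 with it. The difference in the number of calls between the states was not tested. SCO against CAP7 gave 1 higher and 10 lower (9.16% of all genes tested, 4.13% higher and 5.03% lower), among them the fibrillar genes Col3a1 (-0.53 ± 0.083, adjusted p = 4.29e-05), Col5a1 (-0.42 ± 0.070, adjusted p = 1.25e-04) and Col1a2 (-0.33 ± 0.072), lower with SCO. Nid1 was higher with SCO (0.29 ± 0.052). SCO against ROSI gave 1 higher and 10 lower (14.4% of all genes tested, 5.74% higher and 8.64% lower; 4 and 5 with library size alone), among them Lamb1 (-0.45 ± 0.066), Col6a2 (-0.40 ± 0.065) and Col4a1 (-0.39 ± 0.057), lower with SCO. CAP7 against ROSI gave 3 higher and 4 lower (8.57% of all genes tested, 3.48% higher and 5.09% lower; 5 and 1 with library size alone), with Col5a2 (0.30 ± 0.070) and Col18a1 (0.41 ± 0.093) higher with CAP7 and Col6a3 (-0.38 ± 0.076) lower. The genes named for these pairs were called under every alternative run. When the spread was taken from the compared libraries alone, SCO against CAP7 gave 6 calls, SCO against ROSI 7 and CAP7 against ROSI 4. Without replicate 3 of TNF plus SCO, SCO against CAP7 gave 6 and SCO against ROSI 7, the second also 7 without replicate 1 of TNF plus ROSI. CAP7 against ROSI gave 4 without replicate 2 or 3 of TNF plus CAP7.

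Other lists cover genes that act on or with collagen, beginning with those that fold, trim and crosslink it. Of 30 tested processing and crosslinking genes, TNF raised 9 and lowered 7. Without TNF, SCO raised 1 and lowered 15, CAP7 raised 3 and lowered 15 and ROSI raised 1 and lowered 15. Added to TNF, SCO lowered 9 and raised 0, CAP7 raised 3 and lowered 10 and ROSI raised 2 and lowered 10. Called genes made up 53.3% of the list with TNF, against 54.2% of all genes tested. They made up 53.3%, 60% and 53.3% with SCO, CAP7 and ROSI without TNF, against 19.3%, 30.3% and 37.4% of all genes. In TNF cultures the shares were 30%, 43.3% and 40%, against 21.3%, 32.2% and 35.9%. Serpinh1, the collagen chaperone of the endoplasmic reticulum, averaged 371 ± 40.4 CPM with TNF alone and 482 ± 34.5 CPM with DMSO (-0.38 ± 0.094, adjusted p = 8.07e-04). It fell with SCO, CAP7 and ROSI without TNF (-0.37 ± 0.095, -0.64 ± 0.095 and -0.40 ± 0.095) and with CAP7 and ROSI in TNF cultures (-0.36 ± 0.094 and -0.31 ± 0.094), and with SCO there it was at -0.19 ± 0.094 (adjusted p = 0.156). Pcolce and Pcolce2 help cut the ends off procollagen. Pcolce2 was at -1.24 ± 0.17, -1.86 ± 0.17 and -1.73 ± 0.17 without TNF (SCO, CAP7, ROSI). In TNF cultures it was at -1.05 ± 0.16 with CAP7 and -1.44 ± 0.16 with ROSI. Pcolce was at -0.50 ± 0.089, -0.48 ± 0.089 and -0.49 ± 0.089 with TNF (SCO, CAP7, ROSI). Without TNF it was at -0.62 ± 0.090 with SCO and -0.69 ± 0.090 with CAP7. Pcolce2 with TNF plus SCO and Pcolce with ROSI without TNF are not given here. The crosslinking oxidases diverged with TNF, with Loxl2 at 4.16 ± 0.15 and Loxl4 at 2.23 ± 0.25, and Lox at -1.002 ± 0.096 (adjusted p = 1.77e-11).

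Of 18 tested matrix proteases and inhibitors, TNF raised 8 and lowered 7, with the stromelysin Mmp3 (7.10 ± 0.19), the collagenase Mmp13 (4.26 ± 0.20) and the inhibitor Timp1 (3.99 ± 0.16) among the rises. Without TNF, SCO lowered 7 and raised 0, CAP7 raised 1 and lowered 9 and ROSI raised 1 and lowered 11. In TNF cultures, SCO lowered 7 and raised 0, CAP7 raised 1 and lowered 11 and ROSI raised 2 and lowered 12. These calls were 83.3% of the list with TNF, 38.9%, 55.6% and 66.7% with SCO, CAP7 and ROSI without TNF and 38.9%, 66.7% and 77.8% with them in TNF cultures. Over all genes tested the shares were, in the same order, 54.2%, then 19.3%, 30.3% and 37.4%, then 21.3%, 32.2% and 35.9%. Mmp14, the membrane-bound collagenase, fell in all 6 compound comparisons, from -0.64 ± 0.078 with SCO without TNF to -1.11 ± 0.078 with ROSI in TNF cultures. Of 17 tested genes of the TGF-beta pathway, which raises collagen transcription in fibroblasts, TNF raised 5 and lowered 5. Without TNF, SCO and CAP7 each raised 1 and lowered 8 and ROSI raised 1 and lowered 11. In TNF cultures, SCO lowered 4 and raised 0, CAP7 raised 1 and lowered 6 and ROSI raised 1 and lowered 9. These calls were 58.8% of the list with TNF, 52.9%, 52.9% and 70.6% with SCO, CAP7 and ROSI without TNF and 23.5%, 41.2% and 58.8% with them in TNF cultures. The share with TNF lay near the 54.2% of all genes, and that with SCO in TNF cultures near 21.3%. The other shares of all genes were those given for the proteases. Tgfbi, a matrix protein induced by TGF-beta, was at -2.09 ± 0.19 with TNF and at -1.62 ± 0.19, -1.53 ± 0.19 and -2.04 ± 0.20 with SCO, CAP7 and ROSI without TNF. The ligand Tgfb2 was at -1.35 ± 0.10 with TNF and rose by 0.47 ± 0.097, 0.75 ± 0.096 and 0.96 ± 0.096 with those compounds.

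Of 18 tested matrix receptors, TNF raised 8 and lowered 5. Without TNF, SCO raised 2 and lowered 6, and CAP7 and ROSI each raised 3 and lowered 9. In TNF cultures, SCO and CAP7 each raised 3 and lowered 7, and ROSI raised 2 and lowered 10. These calls were 72.2% of the list with TNF, 44.4%, 66.7% and 66.7% with SCO, CAP7 and ROSI without TNF and 55.6%, 55.6% and 66.7% with them in TNF cultures. Over all genes tested the shares were, in the same order, 54.2%, then 19.3%, 30.3% and 37.4%, then 21.3%, 32.2% and 35.9%. Itga6, the alpha subunit of laminin-binding integrins, was at -0.84 ± 0.070 with TNF (adjusted p = 4.33e-13) and rose by 0.52 ± 0.070, 0.72 ± 0.070 and 0.91 ± 0.070 with SCO, CAP7 and ROSI in TNF cultures, and by 0.29 ± 0.069, 0.58 ± 0.069 and 0.63 ± 0.069 with the same compounds without TNF. Ddr1, a receptor kinase for collagen, was at -0.96 ± 0.092 with ROSI without TNF and -1.11 ± 0.092 with TNF (adjusted p = 8.87e-13).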

How the data were processed

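QuantSeq 3′ mRNA libraries from 32 cultures of 3T3-L1 adipocytes (8 groups of 4) were used. Raw counts per gene were deposited by the authors. Tools named, per the submitters' processing notes, include HTSeq 2.0.5 and, listed without a role, STAR 2.7.11b, limma 3.60.6, cutadapt 4.9 and R 4.4.1. Those notes name genome build GRCm39. The handling of strand and of reads that match several places is not given in the sources used here. Each transcript is counted near its 3′ end, and levels were compared within genes, apart from chain ratios followed across groups. Symbols were found for 51880 of the 57186 gene IDs. Totals ran from 11.3 to 37.7 M counts; p-values, intervals and the floor of 3 counts for an undetected gene cover the spread or counting error of these libraries only.

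For the tests, R 4.3.3 with edgeR 4.0.16 was used on the counts (TMM factors, filterByExpr by group, 1 quasi-likelihood model of all 32 libraries, 24 residual degrees of freedom), 16 comparisons were taken from it, and p-values were adjusted by Benjamini-Hochberg over 14428 genes. Levels are CPM on TMM-scaled libraries, and intervals are 95%. Alternatives were RLE factors, library size alone, no filter, a stricter filter (5 CPM in 4 libraries), a replicate block, DESeq2 1.42.0, limma-voom (limma 3.58.1), the spread of the compared libraries only, and each library left out. The model was tested on simulated data. Members given by library were the 4 with the highest mean CPM in each class (3 for collagen IV) and the 2 largest called changes per direction in each of the 7 comparisons with a control. Of these, Col11a1, Col27a1 and Col17a1 were given by library in some groups only. Other members were named after their values were seen. Counts cover all 36 tested members, 1 of which is not reported here by name or in the figures. The members and lists were chosen with earlier results of these data known. Within-group library pairs differed by more than sampling noise. Promoters (RefSeq, GRCm38.p6) and gene overlaps (GENCODE, GRCm38) came from an older build (Python 3.11.15), and no coordinate was joined to the counts.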

Additional observations from a re-analysis of the deposited data

Results flagged for a closer look

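In 9 of 184 sets of a gene and a group, 1 library stood far from the other 3, by the gap test of Dixon for 4 values; chance marks about 1 in 20 sets. Replicate 2 of TNF alone was low for Col4a1, at 903 CPM with the others between 936 and 942, and for Col6a1, at 319 CPM with the others between 362 and 367. Replicate 3 of SCO was high for Col6a2 (562 CPM, others 518 to 525) and for Col15a1 (197 CPM, others 176 to 177). Replicate 1 of CAP7 was high for Col15a1 (229.6 CPM, others 193 to 195). The rest were at lower levels: Col17a1 in replicate 1 of CAP7 (0.0463 CPM, others 0) and in replicate 4 of TNF alone (1.28 CPM, others 0.330 to 0.459), Col11a1 in replicate 3 of TNF alone (1.66 CPM, others 1.07 to 1.15) and Lamb3 in replicate 2 of TNF plus SCO (8.49 CPM, others 4.39 to 4.73). Col17a1 in replicate 1 of CAP7 was 1 count against 0 in the others. There the gap test marks any count, so it shows no library far apart.

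The effect of a compound differed between cultures with and without TNF for 19 pairs of a gene and a compound, by the interaction term in edgeR (log2 change with TNF minus that without, ± SE). For SCO these were Col5a3 (-0.90 ± 0.11), Lamb3 (0.98 ± 0.27) and Col15a1 (0.50 ± 0.12). For CAP7 they were Col1a1 (0.60 ± 0.13), Col5a3 (-0.94 ± 0.11), Col5a2 (0.40 ± 0.098), Col3a1 (0.82 ± 0.12), Lamb3 (1.10 ± 0.26), Col15a1 (0.59 ± 0.12) and Col8a1 (0.97 ± 0.27). For ROSI they were Col5a3 (-0.96 ± 0.11), Nid2 (0.77 ± 0.23), Col5a2 (0.42 ± 0.099), Col3a1 (0.43 ± 0.12), Lamb3 (1.66 ± 0.27), Col11a1 (-1.22 ± 0.40), Col15a1 (0.70 ± 0.12), Col4a1 (0.33 ± 0.081) and Col4a2 (0.29 ± 0.088). The difference for Col8a1 with CAP7 was lost on leaving out DMSO replicate 1 (adjusted p = 0.0543), that for Nid2 with ROSI was lost on leaving out TNF alone replicate 4 (adjusted p = 0.0522) and that for Col11a1 with ROSI was lost with limma-voom or on leaving out DMSO replicate 3 or 4, ROSI replicate 3, TNF alone replicate 3 or TNF plus ROSI replicate 1, 2 or 4 (adjusted p up to 0.0996).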

How the results depend on the processing

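Of 194 calls of a member in a comparison, 143 held under every alternative run, 51 were lost under at least 1, and 0 changed direction. Of 382 pairs of a member and a comparison that were not called, 58 were called under at least 1 alternative, 46 of them under one that kept every library. Under 4 or more of the 8 such alternatives these were Nid2, Hspg2 (ROSI) and Col8a1 (CAP7) in TNF cultures, Lamc1 (SCO and CAP7) and Col16a1 (CAP7 against ROSI) without TNF, Col18a1 (SCO against ROSI) and Col15a1 (SCO against CAP7) with TNF, and the Col8a1 difference between states for ROSI. Counts of calls against a control stayed between 23 and 25 with TNF, 15 and 17 with SCO, 15 and 17 with CAP7 and 20 and 22 with ROSI when 1 library was left out. In TNF cultures they stayed between 14 and 17, 13 and 16, and 21 and 25. Counts between compounds moved more. SCO against CAP7 without TNF gave 0 calls, 1 with no filter or DESeq2, and 0 to 1 with 1 library left out (1 without replicate 3 of SCO or replicate 4 of CAP7). SCO against ROSI without TNF gave 5, 10 with library size alone and 8 with DESeq2. CAP7 against ROSI without TNF gave 8, and 5 to 9 with 1 library left out (5 without replicate 2 of CAP7 or of ROSI). With the spread of the compared libraries only, TNF cultures gave 4 calls against 7 (CAP7 against ROSI), 6 against 11 (SCO against CAP7) and 7 against 11 (SCO against ROSI). With 1 library left out they gave 4 to 6, 6 to 10 and 7 to 12. The cause was not tested.

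Replicate numbers were checked for pairing: same-numbered libraries had deviations correlated between -0.106 and 0.112, and in at most 1 pair of a comparison above 0.1, so the numbers were not taken to pair them. Every library correlated best with its own number in 1 comparison, SCO against ROSI without TNF. With the replicate block, calls numbered 24 for TNF, 18, 18 and 22 for SCO, CAP7 and ROSI without TNF, 16, 14 and 24 with TNF, 5, 9 and 0 for SCO against ROSI, CAP7 against ROSI and SCO against CAP7 without TNF, 11, 8 and 11 for the same pairs with TNF, and 3, 8 and 9 for the interactions. Counts of a few reads per library limit Col17a1, Lama5 and Col11a1.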
